A study of Mus musculus with 6 samples.

Results

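Broad distal peaks of open chromatin are stretches of 2500 bases or more, annotated to introns or between genes, in which ATAC-seq of mouse thigh muscle found accessible DNA. They were chosen from the deposited peak list by their annotated class (intron or intergenic), by their width and by lying on chromosomes 1 to 19. This gave 660 of 75134 peaks, out of 50809 intron or intergenic peaks on those chromosomes. ATAC-seq uses the Tn5 transposase to cut and tag DNA that is free of tightly packed nucleosomes. The libraries came from nuclei of frozen quadriceps femoris, 3 of genotype Prr14-KO (replicates 4, 5 and 7, called KO) and 3 of genotype Prr14-WT (replicates 3, 4 and 8, called WT). The sources used here give neither age, sex and strain nor the deleted part of Prr14. They also do not say whether the libraries are from different animals. The p-values therefore rest on the spread among these libraries, and that spread may be technical.

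PRR14 is a protein of the nuclear lamina, the mesh under the nuclear envelope, and it tethers heterochromatin there through heterochromatin protein 1. The series title names MEF2C, a transcription factor that drives muscle genes, and myofiber identity. Distal accessible regions include enhancers, which raise the transcription of genes that may lie far away along the DNA. Wide or clustered distal regions often lie near genes that define a cell type. The gene named with each peak here is the gene assigned in the deposited annotation, and no contact between peak and gene was measured.

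Some of these distal peaks held annotated transcript starts, which the deposited class does not show. A whole RefSeq start window, from 250 bases before to 50 after a transcript start, lay inside 43 of the 660 peaks, and of these 2 were lower and 3 were higher in KO muscle by the test described below. These 5 are 11.6% of the 43, below the 18% called over all 660, so they show nothing particular to peaks that hold a start. The windows in all 5 called peaks are shown, to give actual bases inside peaks that changed. The lower peaks are annotated to Ppp1r3a (with the start of Gm38768) and Pard3 (LOC115486907). The higher ones lie inside Ppfibp2 or are annotated to Tomm20 (A630001O12Rik) and Katnal1 (LOC108169085). The windows lie at chr6:14608201-14608500 (Gm38768, plus strand), chr8:127441236-127441535 (LOC115486907, minus strand), chr7:107665228-107665527 (Ppfibp2, plus strand), chr8:126848770-126849069 (A630001O12Rik, plus strand) and chr5:148953147-148953446 (LOC108169085, minus strand) of GRCm38.p6 and are credited to RefSeq. Each is written 5′ to 3′ on its own strand. Capitals mark every match, on either strand, to the binding motif of MEF2, to CAGCTG (an E-box of myogenic factors), AAGGTCA (oestrogen-related receptors), TGANTCA (AP-1) or GGAAGT (ETS factors).
Gm38768: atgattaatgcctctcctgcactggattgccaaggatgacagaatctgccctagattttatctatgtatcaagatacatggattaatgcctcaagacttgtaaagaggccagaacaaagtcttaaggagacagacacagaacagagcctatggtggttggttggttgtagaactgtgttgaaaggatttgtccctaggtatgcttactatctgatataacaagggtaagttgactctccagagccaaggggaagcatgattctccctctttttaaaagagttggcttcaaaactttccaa
LOC115486907: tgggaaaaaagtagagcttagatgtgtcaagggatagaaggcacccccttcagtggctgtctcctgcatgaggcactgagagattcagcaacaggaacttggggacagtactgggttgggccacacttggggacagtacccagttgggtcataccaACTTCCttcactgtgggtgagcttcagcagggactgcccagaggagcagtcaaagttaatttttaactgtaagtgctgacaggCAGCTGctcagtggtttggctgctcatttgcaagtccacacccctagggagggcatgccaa
Ppfibp2: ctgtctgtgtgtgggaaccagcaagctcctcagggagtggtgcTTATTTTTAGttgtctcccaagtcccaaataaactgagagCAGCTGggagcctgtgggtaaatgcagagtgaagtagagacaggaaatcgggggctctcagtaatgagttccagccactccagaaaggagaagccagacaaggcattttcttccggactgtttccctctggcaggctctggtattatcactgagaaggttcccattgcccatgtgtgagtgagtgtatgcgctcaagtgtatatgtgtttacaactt
A630001O12Rik: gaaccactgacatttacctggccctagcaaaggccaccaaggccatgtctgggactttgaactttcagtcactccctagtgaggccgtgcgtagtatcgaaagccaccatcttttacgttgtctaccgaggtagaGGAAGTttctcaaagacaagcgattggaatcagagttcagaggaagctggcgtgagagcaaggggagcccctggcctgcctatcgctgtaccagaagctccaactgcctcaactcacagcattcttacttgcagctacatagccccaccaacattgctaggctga
LOC108169085: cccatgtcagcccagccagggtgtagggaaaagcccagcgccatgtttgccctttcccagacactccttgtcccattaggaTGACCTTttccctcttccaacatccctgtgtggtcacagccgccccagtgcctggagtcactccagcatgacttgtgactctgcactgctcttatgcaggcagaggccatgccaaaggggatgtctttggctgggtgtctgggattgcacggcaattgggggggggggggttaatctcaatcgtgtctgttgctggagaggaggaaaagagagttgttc
The Gm38768 window, in the peak that fell furthest of these, holds 0 matches. The LOC115486907 window holds 1 CAGCTG match and 1 GGAAGT match (on the opposite strand), and the Ppfibp2 window holds 1 MEF2 match and 1 CAGCTG match, with no overlap between matches. The A630001O12Rik window holds 1 GGAAGT match and the LOC108169085 window 1 AAGGTCA match (on the opposite strand). Over 32544 RefSeq mouse start windows of GRCm38.p6, a MEF2 match was present in 3.16%, CAGCTG in 16.4%, AAGGTCA in 4.71%, TGANTCA in 7.79% and GGAAGT in 23.7%. A match describes letters only and shows no binding. The Gm38768 peak passed whichever library was left out. The Pard3 peak (log2 fold change -0.67, adjusted p = 0.00444) was lost without KO replicate 4, KO replicate 5 or WT replicate 4 (adjusted p = 0.1 for the last of these), and the Ppfibp2 peak without KO replicate 5 or WT replicate 3. The Tomm20 peak (0.59, adjusted p = 0.0197) was lost without KO replicate 4 or KO replicate 5, and the Katnal1 peak (0.58, adjusted p = 0.036) without KO replicate 4, KO replicate 5, KO replicate 7 or WT replicate 3.

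Libraries held between 7608514 and 12061822 counts in peaks, of which 5.23% to 11.6% lay in mitochondrial peaks and 45% to 48.4% in promoter peaks within 1 kb of a start site. The promoter peak of Prr14 had 51.2, 59.6 and 70.6 CPM (counts scaled to a common library size with TMM factors) in KO and 62.2, 66.4 and 57.1 CPM in WT. Since the deleted part is unknown, it cannot check the labels. Promoter peaks of the muscle genes Ckm, Acta1 and Ttn were open in all 6 libraries, with log2 fold changes of -0.18 to -0.03 that did not pass. The promoter peak of Myh4, the type IIb myosin heavy chain gene, was lower, with 37.7, 41.7 and 33.2 CPM in KO and 75.3, 104.8 and 57.3 CPM in WT (log2 fold change -1.08, edgeR adjusted p = 3.95e-07). It also passed whichever library was left out, but not with the authors' library factors, which are nearly equal between libraries (adjusted p = 0.104). Of 14 macrophage and leukocyte markers, 2 had a tested promoter peak, with a summed 31.4 to 34.8 CPM in KO and 34.7 to 41.7 CPM in WT. Of 18 endothelial markers 14 had a tested promoter peak, with a sum of 112 to 163 CPM in KO and 104 to 143 CPM in WT.

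The 660 peaks were 373 intron and 287 intergenic regions with a median width of 2868 bases and a maximum of 6462. Their median distance to a start site of the annotated gene, as deposited, was 26487.5 bases, with a range of 4540 to 659438. Other transcript starts can lie nearer, as in the 43 peaks that hold a whole RefSeq start window. They were annotated to 537 genes, of which 443 had 1 such peak, 73 had 2, 13 had 3 and 8 had 4. Of the 373 intron peaks, 333 lay inside the span of their own annotated gene. The peaks were bright as well as wide. Their median signal was 40.5 CPM over the 6 libraries, against 4.75 CPM in narrower distal peaks, and per kb of width it was 13.8 CPM against 7.76 CPM. Every peak of the 660 passed the filter on low counts, and the lowest count of any of them in any library was 54. The 5 peaks just inside the width limit had log2 fold changes of -0.05 to 0.27, and the 5 just outside it had -0.81 to -0.22. That contrast did not extend further from the limit. The median was -0.05 in distal peaks from 2500 to under 3000 bases and -0.06 in those from 2000 to under 2500 bases.

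More broad distal peaks were lower than higher in KO muscle. With edgeR's quasi-likelihood test over all 73896 tested peaks and a Benjamini-Hochberg adjusted p below 0.05, 92 of 660 were lower (13.9%), 27 were higher (4.09%; 18% in either direction) and 541 did not pass. Over all tested peaks 4.23% were lower and 2.77% higher (7.01% in either direction), and over 49028 narrower distal peaks 4.86% were lower and 3.1% higher (7.97% in either direction). The log2 fold changes of KO over WT ran from -2.07 to -0.52 among the lower peaks (median -0.80) and from 0.54 to 1.19 among the higher ones (median 0.66). The median over all 660 was -0.06, beside -0.01 over all tested peaks and -0.05 over narrower distal peaks. The excess of lower over higher peaks depended on WT replicate 4: without it 47 were lower and 48 higher (1.89% and 2.99% over all tested peaks, 4.88% in either direction), and the median was 0.04. With the authors' own library factors in place of TMM, 14 were lower and 7 higher, and the median was 0.13, beside 0.19 over all tested peaks. Those factors ran only from 0.977 to 1.04, while counts in peaks ran from 7608514 to 12061822 and median-ratio factors from 0.762 to 1.21. That setting therefore makes little correction for the counts in peaks. In bulk muscle, fewer nuclei of a type and less open chromatin per nucleus cannot be told apart.

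The share of peaks called was larger in wider peaks, whose counts are higher and whose errors are smaller. It was 2.82% of 19140 tested distal peaks under 500 bases, 9.4% from 500 to under 1000, 12.9% from 1000 to under 1500, 15.1% from 1500 to under 2000 and 17.2% from 2000 to under 2500 bases. Among the broad peaks it was 17.3% of 415 from 2500 to under 3000 bases, 19.9% of 211 from 3000 to under 4000 bases and 14.7% of 34 at 4000 bases or more. The median standard error (SE) of the log2 fold change was 0.17 in the widest bin, against 0.47 in the narrowest. Among peaks of like signal, between 28.2 and 58.7 CPM (the interquartile range of the broad peaks), 48 of 330 broad peaks were lower (14.5%) and 15 higher (4.55%), against 129 (8.32%) and 78 (5.03%) of 1550 narrower distal peaks. Without WT replicate 4 the lower and higher shares were 8.79% and 7.27% in those broad peaks, against 3.42% and 7.29% in the narrower ones. Of 779 broad promoter peaks within 1 kb of a start site, 19 were lower (2.44%) and 11 higher (1.41%; 3.85% in either direction). These shares are descriptions, and no test compared the sets of peaks.

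**Figure D1:**
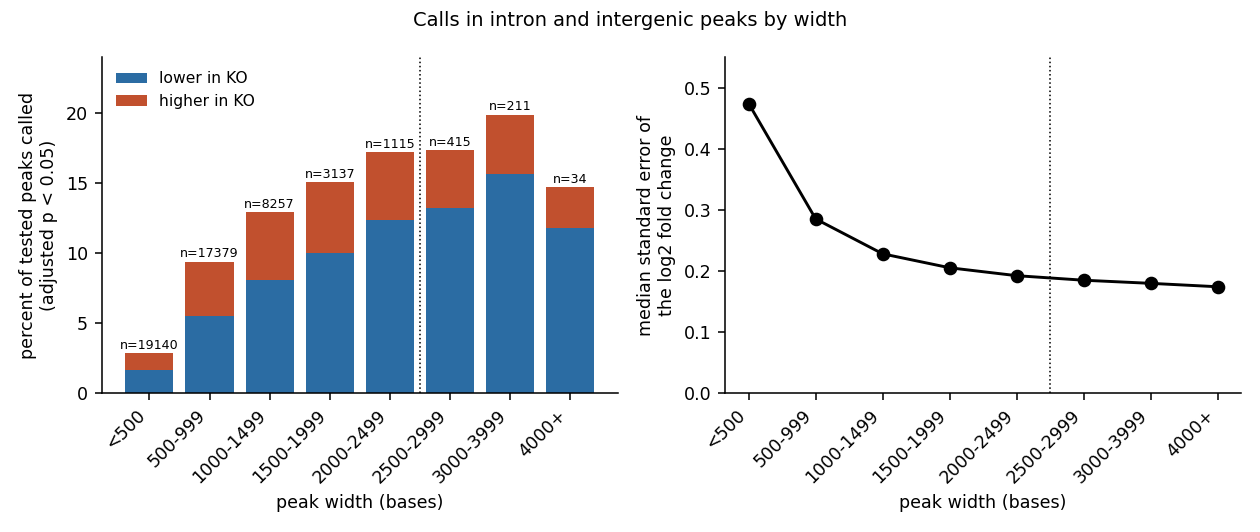
The left panel plots the percent of tested intron and intergenic peaks called lower (blue) or higher (orange) in KO by peak width in bases, with the number of peaks above each bar, and the right panel plots the median standard error of the log2 fold change. The dotted line marks 2500 bases. The share called is 2.82% in the narrowest bin and 14.7% to 19.9% right of the line, and the median standard error is 0.17 in the widest bin.

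**Figure D2:**
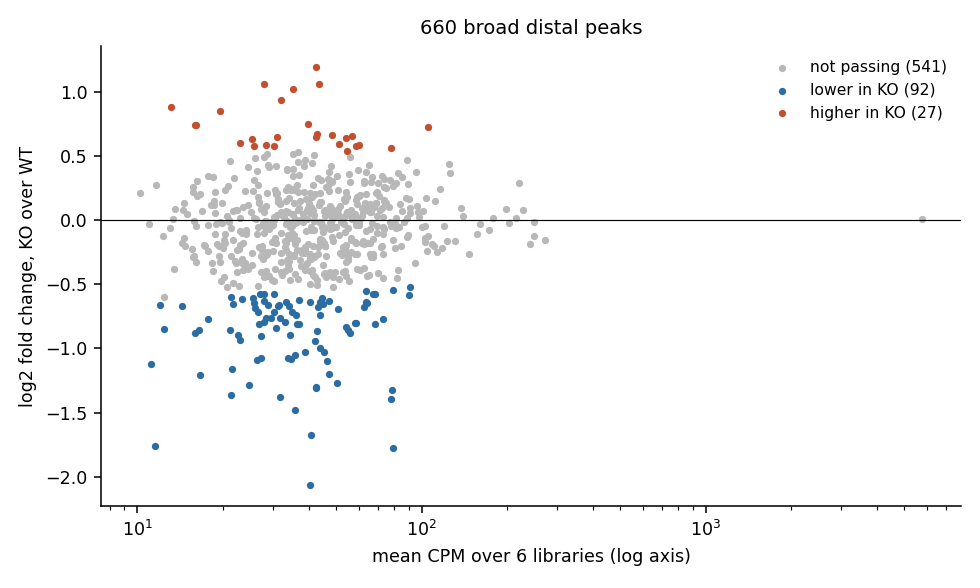
Each point is 1 of the 660 broad distal peaks, with its mean CPM over 6 libraries on a log axis and its log2 fold change of KO over WT. The 92 lower peaks reach -2.07 and the 27 higher ones reach 1.19, and the lone point at the far right is the ribosomal RNA repeat.

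Library by library, the CPM of all 3 KO libraries lay below all 3 WT libraries at 142 of the 660 peaks (21.5%, against 11.2% of all tested peaks) and above them at 76 (11.5%, against 9.17%). The groups did not overlap at 88 of the 92 lower and at 27 of the 27 higher peaks. The lower peaks with overlap, named after their values were seen, were near Adcy9, Arhgap26, Gm7276 and Tbc1d1. When each library was left out in turn, 42 of the 92 lower and 8 of the 27 higher peaks were called every time, and all 119 kept their sign every time. The authors' deposited table, with its own factors and test, has 16 of the 660 lower and 20 higher at an adjusted p below 0.05 (2.42% and 3.03%, 5.45% in either direction, against 0.784%, 2.19% and 2.98% of all tested peaks), and those 16 and 20 were among the 92 and 27.

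WT replicate 4 stood apart at broad distal peaks. It had the highest CPM of the 6 libraries at 390 of the 660 peaks (59.1%), against 25.3% of narrower distal peaks. Its median deviation from the mean of the libraries was 0.24 on the log2 scale, and the other libraries lay between -0.11 and 0.01. The summed signal of 36 promoter peaks of fast fibre and sarcomere genes was also highest there: it was 2657, 2797 and 2643 CPM in KO and 2876, 3691 and 2378 CPM in WT replicates 3, 4 and 8. Promoter sums of the calcium handling, glucose and glycogen, oxidative metabolism, atrophy and dystrophin lists of genes were highest there too. Those of the slow fibre, MEF2, myogenic regulator, neuromuscular junction, clock, immediate early and lamina lists were highest in other libraries. Without WT replicate 4, 47 of the 92 lower and 27 of the 27 higher peaks were still called, a further 21 were higher and 0 further were lower. Without KO replicate 5, 51 were lower and 8 higher, and without KO replicate 4 or WT replicate 3 the higher peaks numbered 16 and 15.

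**Figure D3:**
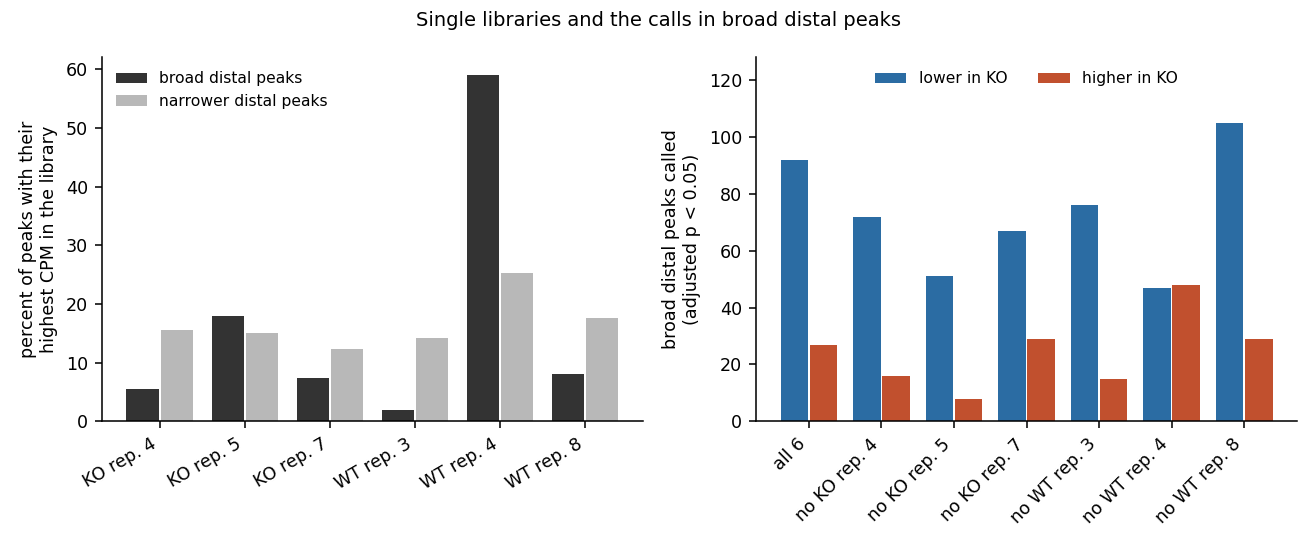
The left panel shows, for each KO and WT library, the percent of broad distal peaks (black) and of narrower distal peaks (grey) that have their highest CPM in it, and the right panel shows the number of broad distal peaks called lower (blue) or higher (orange) in KO with all 6 libraries and with each left out. WT replicate 4 holds 59.1% of the highest values of broad peaks, and without it 47 peaks are lower and 48 higher.

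As a whole, the broad distal peaks took shares of the libraries that overlapped between genotypes. The share of all counts in peaks that fell in them was 3.64%, 3.85% and 3.65% in KO (3.71% ± 0.119, SD, n = 3) and 3.83%, 4.14% and 3.37% in WT (3.78% ± 0.387, SD, n = 3). All 3 KO values lay inside the WT range (exact permutation test, two-sided, p = 0.8, where 3 against 3 cannot go below 0.1). Count density per base, relative to narrower distal peaks of the same library, was 1.75, 1.86 and 1.84 in KO and 1.88, 1.99 and 1.67 in WT, and these also overlapped (exact permutation test, two-sided, p = 0.8). Without WT replicate 4 both differences of KO minus WT changed sign, to 0.116 percentage points for the share and 0.0472 for the density ratio.

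The broad peak with the smallest adjusted p was at Asb15, which encodes a muscle ankyrin repeat and SOCS box protein, a family that selects targets for ubiquitin ligases. This intron peak (ENSMUSG00000029685, chr6:24540687-24543925, GRCm38, 13766 bases from the annotated start) had 16.3, 13.5 and 17.1 CPM in KO and 57.9, 81.9 and 56.3 CPM in WT. All KO libraries lay far below all WT libraries. The log2 fold change was -2.07 (SE 0.19, edgeR adjusted p = 3.66e-23), and the promoter peak of Asb15 was lower too (log2 fold change -0.96, adjusted p = 4.35e-05). Next came an intron peak annotated to Flrt1, a leucine-rich repeat membrane protein gene that lies inside Macrod1 (chr19:7148404-7151556). It had 34.5, 42.9 and 30.6 CPM in KO and 124, 159 and 84.9 CPM in WT, with WT replicate 4 the highest (log2 fold change -1.77, SE 0.18, adjusted p = 5.46e-19). The other broad peak annotated to Flrt1 gave -0.27 and did not pass. The third was an intron peak of Mib1, a ubiquitin ligase gene of the Notch pathway (chr18:10779262-10782333). This peak also lies in the RefSeq span of Mir133a-1hg, the host transcript of muscle microRNAs. It had 19.7, 17.4 and 21.4 CPM in KO and 56.3, 75.4 and 54.8 CPM in WT, so the groups stood well apart (log2 fold change -1.67, SE 0.19, adjusted p = 1.44e-15).

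Regions at genes of glycogen storage and glucose uptake held the most lower peaks of the gene lists. The list of glucose, glycogen and insulin signalling genes, chosen with earlier results of these data known, had 11 broad distal peaks at 4 of its 37 genes, of which 8 were lower, 0 were higher and 3 did not pass (median log2 fold change -0.86, beside -0.06 over the 660, of which 13.9% were lower). In the fit without WT replicate 4, 5 were lower. Its 37 promoter peaks had a median of 0.03, with 2 lower and 1 higher. The summed signal of those promoters was 2121 to 2363 CPM in KO and 1942 to 2600 CPM in WT.

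Ppp1r3c and Ppp1r3a encode subunits that bring protein phosphatase 1 to glycogen. An intergenic peak of Ppp1r3c (ENSMUSG00000067279, chr19:36765693-36768842, 30615 bases from the start) had 18.6, 21.3 and 16.5 CPM in KO and 39.5, 68.6 and 49.8 CPM in WT (log2 fold change -1.48, SE 0.19, adjusted p = 4.86e-12). Its neighbour at chr19:36773420-36776409 fell by 1.27 on the log2 scale, and the groups were apart in both. On the other side of the gene, a pair of broad peaks inside the span of Hectd2os gave 0.12 and -0.44 and did not pass, nor did the Ppp1r3c promoter (-0.11, adjusted p = 0.848). Ppp1r3a, the muscle form, had a faint intergenic peak over the start of Gm38768 whose sequence is shown above (chr6:14607200-14609730, 146809 bases away). It had 5.85, 4.43 and 5.49 CPM in KO and 17.2, 20.3 and 15.6 CPM in WT, again without overlap (log2 fold change -1.76, SE 0.23, adjusted p = 5.27e-11). A nearer Ppp1r3a peak gave -0.86 (adjusted p = 0.00159). That call did not hold without KO replicate 5 or WT replicate 4 (adjusted p = 0.0735, in the fit without WT replicate 4). The Ppp1r3a promoter was lower too (log2 fold change -1.19, adjusted p = 3.58e-07).

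Tbc1d1, a Rab GTPase-activating protein that restrains delivery of the glucose transporter GLUT4, had 2 lower intron peaks of 3. They gave -0.63 and -0.52 (adjusted p = 0.0116 and 0.0414), and neither passed without WT replicate 4 (adjusted p = 0.411 and 0.421), nor without KO replicate 5 or KO replicate 7. The third gave 0.07.

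The contractile gene list, fast fibre and sarcomere, had 15 broad distal peaks at 8 of its 37 genes, of which 5 were lower, 0 higher and 10 did not pass (median log2 fold change -0.43), beside 13.9% lower over all 660 peaks. In the fit without WT replicate 4, 3 of the 15 were lower. The 36 promoter peaks of the list had a median of -0.17, with 4 lower, the Myh4 promoter among them, and 1 higher. The 5 lower broad peaks were 1 at Myh2, the type IIa myosin heavy chain gene, 1 at Mybpc1, which encodes the slow-type myosin binding protein C, and 3 at Pdlim5, a Z-disc PDZ and LIM protein gene. The Mybpc1 peak (-0.80, adjusted p = 9.47e-04) was lost without KO replicate 5. The Myh2 peak (chr11:67139171-67142524) had 38.3, 45.2 and 34.6 CPM in KO and 69.4, 89.0 and 59.3 CPM in WT, without overlap (log2 fold change -0.88, SE 0.18, adjusted p = 6.73e-05). It lies within 50 kb of another pair of broad peaks annotated to Myh3, the embryonic myosin gene. In the brighter of these (chr11:67112506-67115982, over RefSeq 2310065F04Rik), KO had 43.9, 48.3 and 43.2 CPM and WT had 107, 144 and 86.9 CPM (log2 fold change -1.32, SE 0.18, adjusted p = 8.78e-11). Its Myh3 neighbour gave -0.81, so 3 of 3 broad peaks in a stretch of 38.2 kb annotated to Myh3 and Myh2 fell, and all 3 also passed without WT replicate 4. At Myom2, an M-band gene with 4 broad peaks, the values were -0.31 to -0.12 and 0 passed.

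The other muscle lists had few broad distal peaks, and their counts stand beside 13.9% lower and 4.09% higher over all 660. Of 7 at calcium handling genes 2 were lower, at Kcnma1, a potassium channel gene (-0.68, adjusted p = 0.00938), and Jph1, a junctophilin gene (-0.62, adjusted p = 0.0281), and both calls were lost without KO replicate 5, KO replicate 7 or WT replicate 4 (adjusted p = 0.371 and 0.255 in the fit without WT replicate 4). The Jph1 call was also lost without WT replicate 8. Of 13 at myogenic and fibre-type regulators 2 were lower, which is near the share over all 660 and shows nothing particular to these genes. The Sox6 peak, in an intron of a repressor of slow fibre genes, had 20.5, 22.1 and 23.2 CPM in KO and 33.2, 44.3 and 33.8 CPM in WT, without overlap (log2 fold change -0.76, adjusted p = 0.0022). It was lost without KO replicate 5 (adjusted p = 0.0527). The remaining broad peaks annotated to Sox6 gave -0.44 and -0.35 and did not pass. The other lower peak of this list was at Foxo1, a forkhead factor gene (-0.64, adjusted p = 0.011). That call did not hold without KO replicate 4, KO replicate 5 or WT replicate 4 (adjusted p = 0.255 in the fit without WT replicate 4). In the atrophy and proteolysis list Asb15 was the lower peak of 6. In the dystrophin list Dag1, the dystroglycan gene, was the lower peak of 3 (-0.58, adjusted p = 0.0366), lost in 5 of the 6 fits that leave out a library, that without WT replicate 4 included (adjusted p = 0.193).

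Genes of MEF2 factors and class IIa deacetylases, the pathway of the series title, had 4 broad distal peaks, at Hdac4, Hdac7 and Mef2a and none at Mef2c, and 0 were called by edgeR in the fit with all libraries (0 also at an unadjusted p below 0.05, 0 by DESeq2 and 0 by limma-voom). The Mef2a peak gave 0.09 (adjusted p = 0.877), Hdac7 gave -0.02 and the pair at Hdac4 gave -0.28 and 0.34. Lists with 0 called were also neuromuscular junction (3 peaks), oxidative metabolism (4), circadian clock (3) and lamina and heterochromatin (2). DESeq2 and limma-voom also called 0 there, and at an unadjusted p below 0.05 edgeR had 1, 1, 1 and 0 of these. The slow fibre list had 0 broad distal peaks. With WT replicate 4 left out there was 1 higher peak at Myog, a myogenic factor gene (adjusted p = 0.0364), and 1 at Arntl, a clock gene (adjusted p = 0.023). In the immediate early and stress list, with 9 peaks, 1 was higher, at Myc, and 1 was lower. The lower peak is annotated to Fosl2, an AP-1 gene, lies inside Babam2, and had 14.6, 16.1 and 14.4 CPM in KO and 24.4, 29.2 and 28.3 CPM in WT (log2 fold change -0.86, adjusted p = 7.65e-04). With WT replicate 4 left out, the list had 2 higher peaks, at Myc and Ier5.

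Over the 13 muscle and control lists together, 77 broad distal peaks included 20 lower and 1 higher (27.3% called). Beside these, 72 were lower and 26 higher of 581 peaks at genes of no list (16.9%). The lists were chosen with earlier results of these data known, so the larger share is no evidence about muscle genes as a class. Leaving out WT replicate 4, these were 11 lower and 4 higher, and 36 lower and 44 higher. Of the 7 lists of markers of other cell types, 5 had 0 broad distal peaks. Ets1, an endothelial marker, and Cd34, a fibro-adipogenic marker, had 1 each, at -0.02 and -0.18, and neither passed (adjusted p = 0.983 and 0.737).

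Several further lower peaks ranked among the 10 with the smallest adjusted p, which were chosen among peaks without overlap between groups. A peak 138926 bases from Sgk1, a glucocorticoid-induced kinase gene (chr10:21741600-21744915), had 44.7, 41.6 and 42.4 CPM in KO and 107, 151 and 80.1 CPM in WT. The KO libraries were nearly equal and the WT libraries spread widely (log2 fold change -1.40, SE 0.18, adjusted p = 6.72e-12). An intron peak of Fggy, a carbohydrate kinase gene (chr4:95860350-95863040), had 24.7, 23.7 and 25.1 CPM in KO and 54.0, 77.8 and 49.7 CPM in WT (log2 fold change -1.31, SE 0.18, adjusted p = 8.28e-10). The other broad peak annotated to Fggy gave -0.33 and did not pass. A peak near Gm17651 (chr3:97685772-97688457) had 31.8, 23.0 and 19.3 CPM in KO and 49.2, 78.6 and 53.8 CPM in WT, with no overlap (log2 fold change -1.30, SE 0.18, adjusted p = 1.04e-09). All 10 of the lower peaks with the smallest adjusted p also passed without WT replicate 4.

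In the fit with all libraries the higher peaks were fewer and changed less (48 higher and 47 lower without WT replicate 4). Of the 27 higher peaks, 1 was at a gene of a muscle or control list, as were 77 of all 660. In the fit without WT replicate 4, 4 of the 48 were. The lists were chosen with earlier results of these data known, so these counts are no evidence about muscle genes as a class. The largest gain was 17876 bases from Pde10a, a cyclic nucleotide phosphodiesterase gene (ENSMUSG00000023868, chr17:8505817-8509174), with 59.7, 71.8 and 45.9 CPM in KO and 23.5, 27.6 and 26.6 CPM in WT. All KO libraries lay above all WT libraries (log2 fold change 1.19, SE 0.18, adjusted p = 3.18e-08). A peak annotated to Trim8, a ubiquitin ligase gene, lies in an intron of Sufu, an inhibitor of Hedgehog signalling (chr19:46458010-46460519). It had 60.5, 67.0 and 49.6 CPM in KO and 26.3, 28.9 and 29.6 CPM in WT, again without overlap (log2 fold change 1.06, SE 0.18, adjusted p = 1.22e-06). A peak near Mtr, the methionine synthase gene (chr13:12263683-12267193), had 51.2, 31.4 and 30.3 CPM in KO and 13.8, 19.9 and 20.5 CPM in WT. KO replicate 4 was far above the other KO libraries there (log2 fold change 1.06, SE 0.19, adjusted p = 5.62e-06). A peak near Zfp827, a zinc finger gene (chr8:79206843-79210241), had 48.1, 49.1 and 44.6 CPM in KO and 23.1, 21.0 and 26.2 CPM in WT (log2 fold change 1.02, SE 0.19, adjusted p = 6.58e-06). These 4 were the higher peaks past 1 on the log2 scale, and each passed whichever library was left out.

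Smaller gains followed among the 10 higher peaks, which were likewise chosen among peaks without overlap between groups. A peak near Rnf186, a RING finger gene (chr4:138941407-138944281), had 44.1, 44.6 and 37.4 CPM in KO and 23.9, 20.7 and 21.2 CPM in WT (log2 fold change 0.94, adjusted p = 5.66e-05), and the Rnf186 promoter was higher as well (log2 fold change 1.01, adjusted p = 0.00301). An intron peak of Sh3bp5, a Rab11 exchange factor gene (chr14:31406238-31408995), had 49.9, 55.3 and 44.4 CPM in KO and 27.3, 29.6 and 32.1 CPM in WT (log2 fold change 0.75, adjusted p = 0.00168), and its promoter was also higher (log2 fold change 0.55, adjusted p = 0.034). In both places the groups stood apart. Near Iyd, the iodotyrosine deiodinase gene, the mean was 17.0 ± 1.17 CPM in KO and 9.30 ± 1.98 CPM in WT (SD, n = 3 each, log2 fold change 0.88, adjusted p = 0.00244). The groups did not overlap there.

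The peak annotated to Myc, the proto-oncogene, lies in the non-coding gene Pvt1 (chr15:62041965-62044666, 55894 bases from the Myc start) and had 47.3, 60.9 and 49.4 CPM in KO and 36.1, 35.3 and 27.3 CPM in WT. All KO libraries were higher (log2 fold change 0.67, SE 0.18, adjusted p = 0.00614), but the call was lost without KO replicate 5 (adjusted p = 0.136). The Myc promoter gave -0.12 (adjusted p = 0.816), and the other broad peak annotated to Myc gave 0.26 and did not pass. An intron peak of 2310022B05Rik (chr8:124651716-124654440) had 27.7, 30.6 and 16.6 CPM in KO and 12.8, 12.7 and 16.3 CPM in WT. KO replicate 7 lay just above WT replicate 8, and the call (log2 fold change 0.85, adjusted p = 0.00124) was lost without KO replicate 5 (adjusted p = 0.0857).

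**Figure D4:**
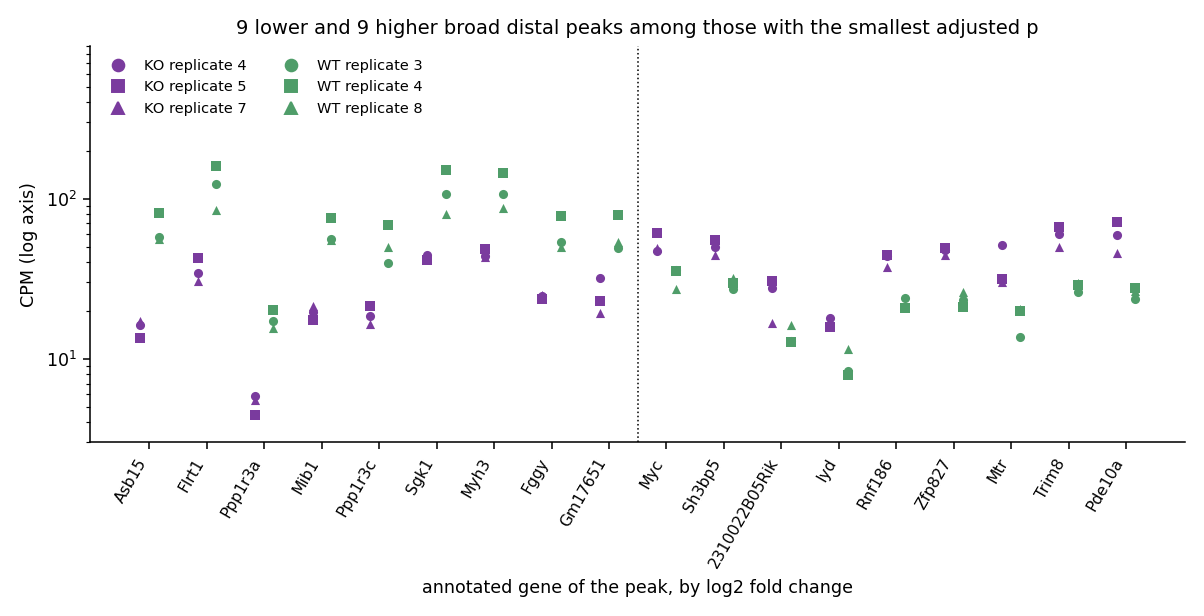
CPM on a log axis in each KO library (purple, left of each pair) and each WT library (green, right) for 9 lower (left of the dotted line) and 9 higher (right of it) broad distal peaks, among the 10 of each with the smallest adjusted p and no overlap between groups. The lower peaks run from a log2 fold change of -2.07 at Asb15 to -1.30 at Gm17651 and the higher ones from 0.67 at Myc to 1.19 at Pde10a.

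Of the 10 genes ranked first by number of broad distal peaks, 7 had 0 called peaks and 3 had lower peaks: Pdlim5 (3 of 4), Ppp1r3c (2 of 4) and Tbc1d1 (2 of 3). Over all 537 annotated genes, 104 had 1 or more called peaks, and a gene with more peaks has more chances of a call. Of the 27 peaks of the 7 genes, 3 had an unadjusted p below 0.05 in edgeR, and DESeq2 and limma-voom called 0. At Zbtb16, which encodes a BTB zinc finger repressor, the 4 intron peaks gave -0.16 to 0.02, and the widest of them had 166, 185 and 185 CPM in KO and 169.6, 196 and 165 CPM in WT, so the groups overlapped. At Zbtb20, another BTB zinc finger gene, 4 intron peaks gave -0.52 to -0.06, and at Rere, an atrophin corepressor gene, 3 gave -0.21 to 0.13. At Irf2bp2, a corepressor gene, 4 intergenic peaks gave 0.01 to 0.42. Klf14, a Krüppel-like factor gene, and Mkln1, the muskelin gene, had 4 each, between -0.25 and 0.28. These 8 peaks form the largest run, over 210 kb of chromosome 6 that includes the non-coding gene Lncpint, and 0 of the 8 passed.

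At Pdlim5 the 4 peaks gave -0.81 to -0.52. Its widest peak (chr3:142439595-142444135) had 56.9, 52.8 and 53.1 CPM in KO and 76.9, 120.1 and 80.3 CPM in WT, without overlap (log2 fold change -0.77, adjusted p = 6.43e-04). It was the lower Pdlim5 peak that remained in the fit without WT replicate 4 (adjusted p = 0.0477). The Pdlim5 promoter gave 0.05 (adjusted p = 0.942). Outside the ranked 10, and chosen after its values were seen, Eepd1, which encodes a protein with an endonuclease and phosphatase domain, had 3 of 3 peaks lower (-1.10, -1.02 and -0.94), and all 3 passed in every fit that left out a library. Its promoter gave -0.28 (adjusted p = 0.464).

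**Figure D5:**
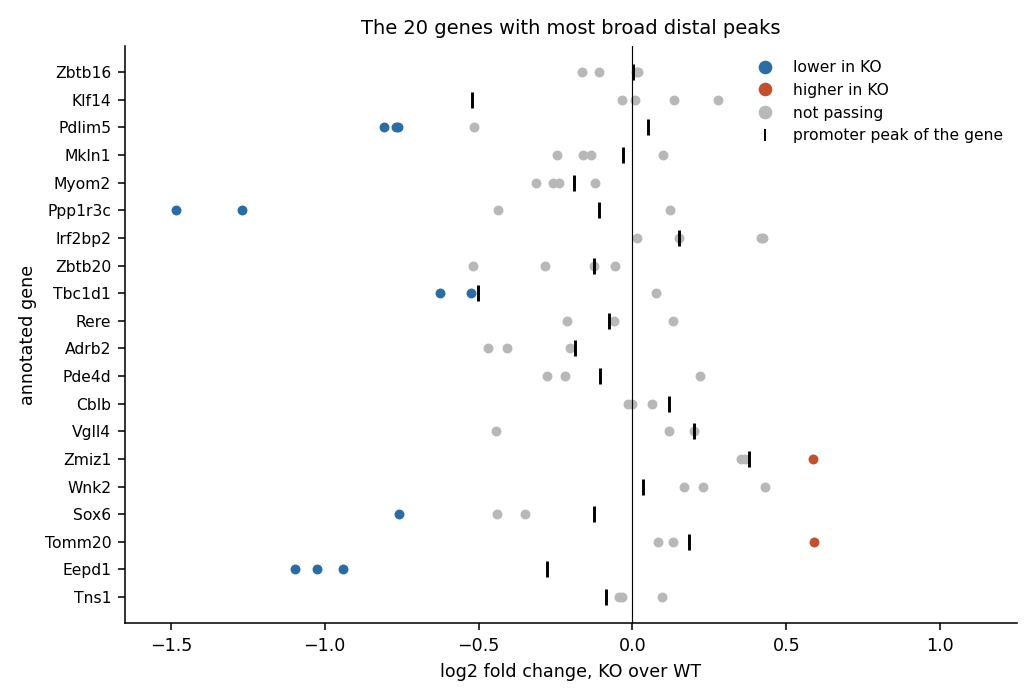
Log2 fold change of KO over WT for each broad distal peak (points) and for the promoter peak (black bar) of the 20 genes with most broad distal peaks, with the gene of highest rank at the top. Blue points are lower and orange points higher in KO by the adjusted p, and grey points did not pass. The 3 Eepd1 peaks and 3 of the 4 Pdlim5 peaks are lower, and the 4 Zbtb16 peaks lie between -0.16 and 0.02.

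Direction was compared among broad peaks of the same gene and among neighbours, which are not independent regions. Of 94 genes with 2 or more broad distal peaks, 63 had the same sign at all of them, 13 had 2 or more lower peaks, 0 had 2 or more higher ones and 0 had calls in both directions. With WT replicate 4 left out, 4 genes had 2 or more lower peaks (Ppp1r3c, Eepd1 and Myh3 among them) and 0 had 2 or more higher ones. Of 111 neighbouring pairs within 50 kb, 85 had the same sign. These made 84 runs with 195 of the peaks, of which 11 runs had 2 or more lower peaks (4 without WT replicate 4) and 0 had 2 or more higher ones. No baseline of unrelated peaks was set beside these counts. Of the 94 genes, 73 had 2 peaks, and lower calls outnumbered higher ones over the 660 (92 and 27).

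Promoter peaks of the same genes were a separate measure. Of 77 genes with a lower broad distal peak, 69 had a tested promoter peak, of which 6 were lower, 0 higher and 63 did not pass (median log2 fold change -0.11). The 6 were Asb15, Ppp1r3a, Ctxn3, Rapgef2, Rbfox1 and Klhl31. Of 27 genes with a higher one, 22 had a tested promoter peak, of which 2 were higher (Rnf186 and Sh3bp5), 0 lower and 20 did not pass (median 0.20). Over all 481 genes with a broad distal peak and a promoter peak, 10 promoters were lower and 5 higher (median 0.05).

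The peaks were also counted by distance, class and chromosome. At a deposited distance under 10 kb from a start of the annotated gene, 6 of 105 broad peaks were lower and 3 higher (8.57% called). At 10 to 50 kb 63 of 375 were lower and 21 higher (22.4%), and beyond 50 kb 23 of 180 were lower and 3 higher (14.4%). With WT replicate 4 left out, the lower peaks in these bins numbered 2, 32 and 13 and the higher ones 8, 34 and 6. Intron peaks (56 lower and 13 higher of 373, 18.5%) and intergenic peaks (36 and 14 of 287, 17.4%) had like shares, with 26 lower and 22 higher, and 21 lower and 26 higher, without WT replicate 4. Chromosomes 3 and 15 were picked after their values were seen, as those with the largest and smallest share lower, beside 13.9% over all 660. On chromosome 3, 13 of 31 broad peaks were lower and 0 higher (8 and 1 without WT replicate 4). Among narrower distal peaks there 8.55% were lower and 2.39% higher, beside 4.86% and 3.1% over all narrower distal peaks. On chromosome 15, 0 of 35 were lower and 2 higher (0 and 4 without WT replicate 4).

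The 5 widest peaks did not pass in edgeR, DESeq2 or limma-voom, and 0 had an unadjusted p below 0.05 in edgeR. At Nfic, a nuclear factor I gene, the widest peak of all (6462 bases, chr10:81411243-81417704) had 218, 233 and 199.9 CPM in KO and 226, 236 and 181 CPM in WT (log2 fold change 0.02, adjusted p = 0.979). The groups overlapped there, as they did at the peaks near Spag9, a JNK scaffold gene (5950 bases, -0.13), Rab11fip4, a Rab11 effector gene (5435 bases, -0.17), and Zbtb16 (5396 bases, 0.02). The remaining peak, of 5654 bases, is annotated to Esp38 but lies over the RefSeq ribosomal RNA genes Rn18s-rs5 and AY036118, and its reads can come from many near-identical repeat copies, so its level is uncertain. It had 4772, 6019 and 6539 CPM in KO and 6626, 6098 and 4544 CPM in WT (log2 fold change 0.01), and without it the counts of lower and higher peaks stayed at 92 and 27.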

How the data were processed

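Nuclei of frozen mouse quadriceps femoris were profiled by ATAC-seq in 3 Prr14-KO and 3 Prr14-WT libraries. Without role or order, the submitters' processing notes list build GRCm38 and the tools bedtools, BWA, deepTools, DESeq2 1.6.3, MACS2 and Trimmomatic. The sources used here do not give read shift, duplicate handling, peak merging or the counting tool; merging of neighbouring peaks would set which regions reach 2500 bases. The authors deposited 1 common peak list with raw counts per library, a normalized signal (the count divided by 1 factor per library), a log2 fold change, a p-value with its adjusted form, a score that was not used, the annotated gene, class and distance.

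The counts were fitted over all peaks with edgeR 4.0.16 (glmQLFit and glmQLFTest, two-sided, R 4.3.3), TMM factors and filterByExpr (minimum count 10, minimum total 15), which left 73896 peaks. P-values were adjusted by Benjamini-Hochberg over all of them at 0.05, and every adjusted p in the text is of this test unless another is named. CPM use TMM-scaled library sizes, and SE is that of the log2 fold change. Values of 1 per library were compared by exact permutation tests. The procedure was tested on simulated counts with the same dispersion for all peaks and no deviating library. That simulation therefore cannot check how WT replicate 4 or the library factors affect the calls. Alternatives were the authors' factors, median-ratio factors, total counts, loess offsets, promoter-based TMM, no filter, DESeq2 1.42.0, limma-voom (limma 3.58.1), an adjusted p of 0.01, other widths, classes and distances, and each library left out. Leaving out the ribosomal RNA repeat, and other denominators, were chosen after seeing the data.

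Named peaks are those of the 10 genes with most broad distal peaks (ties by summed width), the 10 lower and 10 higher peaks with the smallest adjusted p and no overlap, the 5 widest, and the called peak with the smallest adjusted p of each of 20 gene lists; others are named where the text says so or where a list's counts are explained. The peaks and lists were chosen with earlier results of these data known. Start windows come from a RefSeq table of GRCm38.p6; no genome sequence was used, so peak sequences are not shown. Some peaks that the rule picks are not reported here.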

Additional observations from a re-analysis of the deposited data

How the results depend on the processing

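With WT replicate 4 left out the balance of the counts turned. Leaving out each library in turn gave 47 to 105 lower and 8 to 48 higher peaks, with a median log2 fold change of -0.08 to 0.04. The authors' library factors, which are nearly equal between libraries, gave 14 lower and 7 higher and a median of 0.13. Median-ratio factors, total counts, loess offsets, promoter-based TMM, no filter, DESeq2 and limma-voom kept both counts within 1.5 times of 92 and 27. At an adjusted p below 0.01, 14 were higher. Widths of 2000, 3000 and 4000 bases or more gave 230, 37 and 4 lower and 81, 10 and 1 higher. Intergenic peaks alone gave 36 lower and 14 higher, and intron peaks alone 56 and 13, since these settings change how many peaks are counted. The difference of KO minus WT in the share of counts was 0.0223 at 4000 bases or more and 0.0137 for intergenic peaks, and ran from -0.269 to 0.116 with libraries left out. That of the density ratio was 0.167 at 4000 bases or more and 0.0248 for intergenic peaks, and ran from -0.113 to 0.0472. The causes were not tested. Of the 31 called and named peaks, 0 changed sign under any of these fits, 13 were lost with the authors' factors, 8 without KO replicate 5 and 6 without WT replicate 4. Each peak had 54 counts or more in every library, and 3 libraries a group limit the error. No paired analysis was possible because the groups share only replicate number 4.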

Other observations

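The single peaks given here were picked with their values known, and they make no gene group. An intron peak of Mbnl1, a muscleblind splicing factor, had 28.5, 22.7 and 21.2 CPM in KO and 39.3, 54.6 and 40.5 CPM in WT (log2 fold change -0.89, SE 0.19, edgeR adjusted p = 1.12e-04, and 0.00909 without WT replicate 4). An intron peak of Rbfox1, an RNA-binding splicing factor, had 16.6, 17.4 and 16.6 CPM in KO and 32.3, 46.6 and 28.9 CPM in WT (log2 fold change -1.09, SE 0.19, adjusted p = 2.50e-06, and 0.00184 without WT replicate 4). The KO libraries were below the WT libraries in both, and a second Rbfox1 peak gave -0.52 and did not pass (adjusted p = 0.0992). Broad distal peaks of other genes of splicing regulators did not pass either: Mbnl2 gave -0.19, Qk 0.12 and Rbm20 0.11 (adjusted p = 0.673, 0.86 and 0.854).

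Of the 13 genes with 2 or more lower broad distal peaks, 2 not described above are given here. Prkab1, which encodes a beta subunit of the energy sensor AMPK, and Nampt, an enzyme of NAD synthesis, were also picked with their values known, and each had 2 lower peaks. The Prkab1 peaks gave -0.62 and -0.67 (adjusted p = 0.0157 and 0.00796), and neither passed without WT replicate 4 (0.13 and 0.254) or KO replicate 7. The Nampt peaks gave -0.69 and -0.67 (adjusted p = 0.00377 and 0.00879), and the first passed without WT replicate 4 (0.0375 and 0.0757), while neither passed without KO replicate 5. Mature sequences of miR-1191b, miR-7671 and miR-3075 lie inside broad distal peaks near Nfic, Irf1 and Zmiz1 that did not pass, with log2 fold changes of 0.02, 0.05 and 0.35. RefSeq Mir133a-2 overlaps a broad peak annotated to Slco4a1, and Mir145a overlaps one annotated to Il17b. The authors' deposited values for the Slco4a1 and Il17b peaks were 0.0023 and 0.017 on the log2 scale, and neither passed there. These are not on the scale of the edgeR values above: the deposited value of the Nfic peak is 0.20. In edgeR with the authors' library factors, the median over all tested peaks was 0.19.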
